A study of Arabidopsis thaliana with 12 samples.

Results

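The glutathione transferase (GST) genes of Arabidopsis were taken as every locus of the 2 deposited expression tables that carries a gene name beginning with GST, an optional class letter and a number. This gave 45 of 36101 loci, with 47 GST names, all of which matched a gene of the reference annotation. By the class letter, 26 loci were tau, 12 phi, 3 theta, 2 zeta and 2 lambda. In 39 loci the GST gene was the only name. The other 6 loci held several names and cannot be split: GSTF8 with AT2G47720, which lies within the span of GSTF8, GSTF2 with AT4G02530, GSTU10 with OTP87, GSTU18 with ERD9 (itself a tau class GST), GSTU1 with GSTU2, and GSTL1 with GSTL3. A value for GSTF8 is therefore always that of the shared locus.

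Glutathione transferases couple the tripeptide glutathione to reactive or toxic molecules, which makes these more soluble and marks them for transport into the vacuole. Plants hold a large family of them. The tau and phi classes are particular to plants and respond to stress, herbicides and hormones, whereas theta, zeta and lambda members act in peroxide reduction, tyrosine breakdown and thiol transfer. GST genes are common markers of plant defence, since elicitors such as flg22, a peptide of bacterial flagellin, raise the transcripts of several of them.

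The 12 libraries came from Arabidopsis thaliana seedlings in 4 groups of 3. Seedlings 2 weeks old, labelled Col-0 (wild type) or ali1, received acetone, the solvent, or 6 µM oxo-C14-HSL, a long-chain quorum-sensing molecule of Gram-negative bacteria, for 3 days. The ali1 line is a single T-DNA insertion line in the Col-0 background, in a gene for a kinase-like protein (ALI1, At5g14470). Every group, the acetone controls included, was then treated with 100 nM flg22 for 2 h, so the values show what the pretreatment changed in elicited seedlings and hold no unelicited level. The question was which GST genes differed between oxo-C14-HSL and acetone pretreatment under each label.

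Each table gives a single FPKM value (a read count scaled to transcript length and library size) for a group, pooled by the authors over its 3 libraries. No value per library exists in them, so no SD and no test can be given, and all ratios below are descriptions of pooled values. A log2 ratio is log2 of (FPKM + 0.1) in one group over (FPKM + 0.1) in the other, and a gene is called here when the mean FPKM of the groups compared is at least 1 and the log2 ratio is at least 1 in size. Values under the Col-0 and ali1 labels come from 2 tables that were normalized separately. ALI1 itself stood at 15.0 and 11.1 FPKM with acetone and with oxo-C14-HSL under the Col-0 label. Under the ali1 label it stood at 27.4 and 30.1 FPKM, so its values were not lower there. The paper, in contrast, reports no ALI1 product from ali1 cDNA by PCR. The part of the gene that these reads cover is not known, and the description entries of the samples name the opposite genotype's comparison. The groups are therefore called throughout by their labels, taken from the titles. Whole seedlings were used, in which fewer cells of a type and less RNA per cell cannot be told apart. The 9 leaf markers summed to between 20178 and 21340 FPKM in the 4 groups. Of 12 root markers, 10 were found.

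The family spanned more than 5 orders of magnitude and rested on a few genes. GSTF6, which acts in the synthesis of the phytoalexin camalexin, stood at 5176 and 3968 FPKM with acetone and with oxo-C14-HSL under the Col-0 label, and at 5039 and 4389 FPKM under the ali1 label. It ranked from 3 to 5 among all loci in each group. Its tandem neighbour GSTF7 followed with 2873, 2309, 2950 and 2403 FPKM in the same order of groups. The locus of GSTF8, a stress-inducible gene that is also listed under its older name GST6, stood at 1737, 1516, 1749 and 1650 FPKM. By qPCR, the paper reports more GST6 transcript in flg22-treated Col-0 after oxo-C14-HSL than after acetone, whereas the locus was lower here. The measures are unlike, since the qPCR values were set relative to a reference gene and to the level before flg22, and the locus is shared. GSTF9 reached 534, 670, 735 and 635 FPKM, and its neighbour GSTF10 reached 555, 578, 603 and 599 FPKM. In all 3 of the most abundant loci both acetone groups lay above both oxo-C14-HSL groups, whereas GSTF9 was lowest and GSTF10 also lowest in the acetone group labelled Col-0. How many of all loci had such an order was not counted. Of all loci above 100 FPKM, 34.1% were higher after oxo-C14-HSL than after acetone under the Col-0 label, and 51.2% under the ali1 label.

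Together GSTF6, GSTF7 and the GSTF8 locus made up 75.9% and 72.2% of the summed FPKM of the family with acetone and with oxo-C14-HSL under the Col-0 label, and 75.6% and 73.9% under the ali1 label. The sum over all 45 loci was 12890 and 10786 FPKM under the Col-0 label and 12879 and 11423 FPKM under the ali1 label. After oxo-C14-HSL it had thus changed by -16.3% under the Col-0 label and by -11.3% under the ali1 label. Without the 3 top loci the sums were 3104, 2994, 3141 and 2980 FPKM, so most of the difference in the sum lay in these 3 loci. The FPKM of all nuclear loci also summed to less after oxo-C14-HSL, with 754719 and 715896 under the Col-0 label and 735725 and 725000 under the ali1 label. Of these sums, GSTs made up 1.71% with acetone and 1.51% with oxo-C14-HSL under the Col-0 label. Under the ali1 label they made up 1.75% and 1.58%.

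At the other end, 8 loci had a mean FPKM over the 4 groups below 1, namely GSTF4, GSTF14, GSTU3, GSTU14, GSTU15, GSTU21, GSTU25 and GSTZ2. GSTU14 was listed at 0 in the acetone group labelled Col-0 and at 0.105, 0.0727 and 0.0362 FPKM in the others. GSTU21 was listed at 0 in that group and in the oxo-C14-HSL group labelled ali1, and at 0.0389 and 0.0610 FPKM in the oxo-C14-HSL group labelled Col-0 and the acetone group labelled ali1. From the spacing of the lowest FPKM values, these amounts are approximately 2 to 6 reads over 3 libraries, so nothing can be read from their order.

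**Figure D1:**
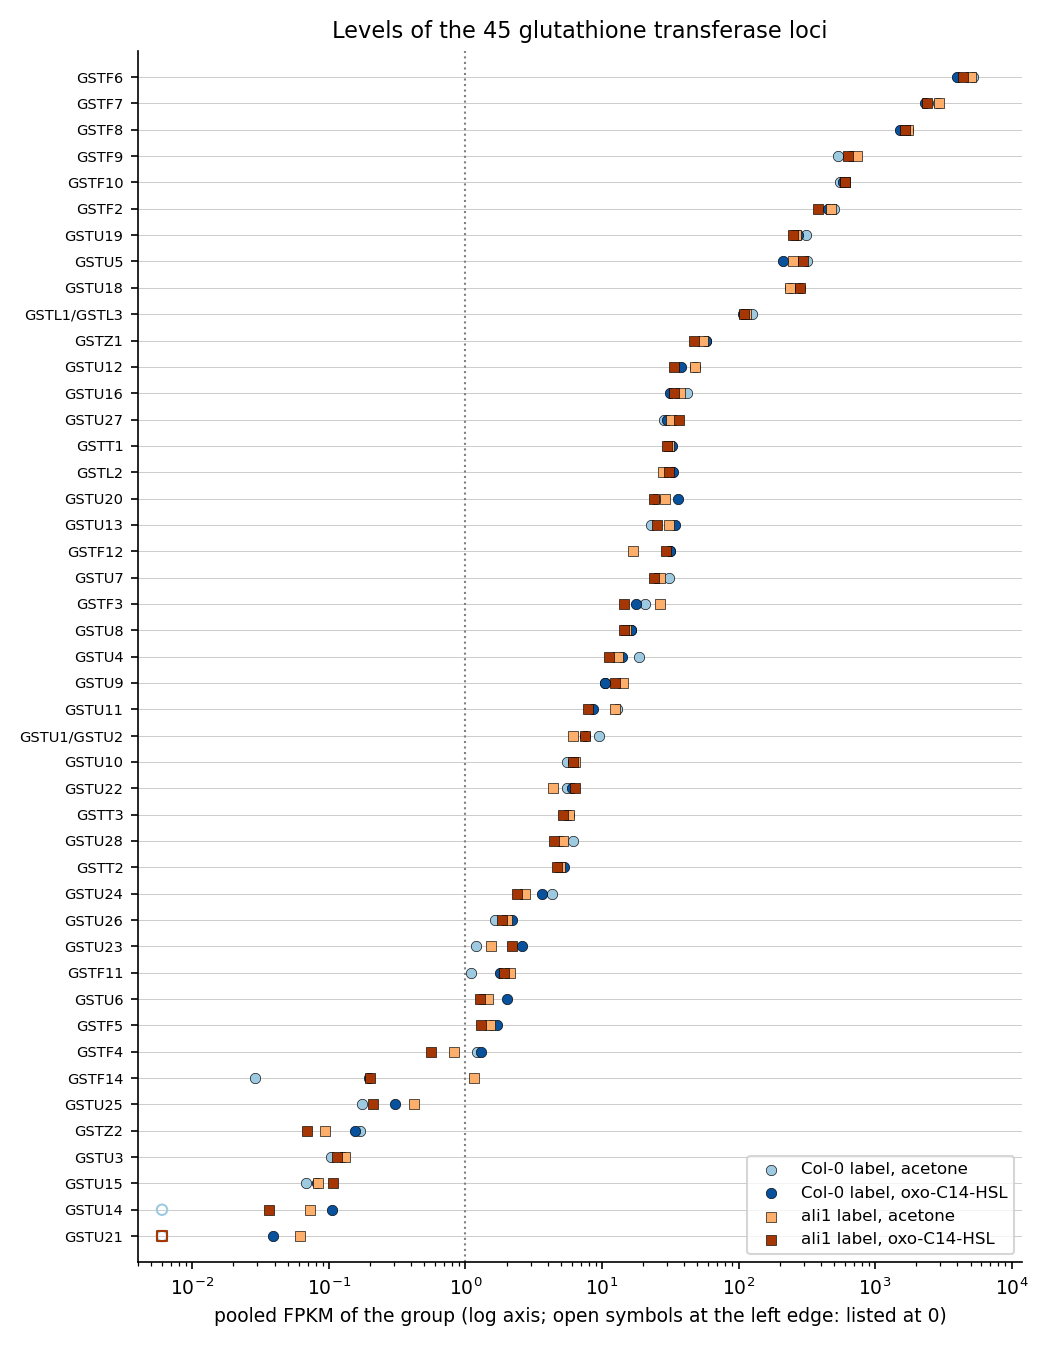
Pooled FPKM of the 45 GST loci (rows, by mean level) in the 4 groups on a log axis, with circles for the Col-0 label, squares for the ali1 label, and dark symbols for oxo-C14-HSL. Open symbols at the left edge mark values listed at 0, and the dotted line marks 1 FPKM. GSTF6 stands between 3968 and 5176 FPKM, and in GSTF12 a single group, ali1 acetone, lies apart at 16.8 FPKM against 29.5 to 31.3 FPKM.

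Promoter sequence was read for the members as the 250 bases before each gene start in the TAIR10.1 reference. The elements searched first, on both strands, are known from GST promoters: TGACG, the core bound by TGA factors in as-1 and ocs elements, and TTGACC or TTGACT, the W-box bound by WRKY factors. The first promoter shown is that of GSTF7 (chr1:659981-660230, minus strand), one of the most abundant members, and the next pair is GSTU11 (chr1:26338819-26339068, minus strand) and GSTU12 (chr1:26335631-26335880, minus strand), neighbours that were lower after oxo-C14-HSL under both labels. Capitals mark each W-box and TGACG on either strand, and a minus-strand promoter is given on the gene's own strand, 5′ to 3′.
GSTF7: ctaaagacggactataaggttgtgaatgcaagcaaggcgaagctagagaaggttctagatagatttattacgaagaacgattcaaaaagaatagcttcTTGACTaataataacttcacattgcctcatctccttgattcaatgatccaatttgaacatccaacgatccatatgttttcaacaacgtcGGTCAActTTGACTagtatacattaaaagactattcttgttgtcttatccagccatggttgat
GSTU11: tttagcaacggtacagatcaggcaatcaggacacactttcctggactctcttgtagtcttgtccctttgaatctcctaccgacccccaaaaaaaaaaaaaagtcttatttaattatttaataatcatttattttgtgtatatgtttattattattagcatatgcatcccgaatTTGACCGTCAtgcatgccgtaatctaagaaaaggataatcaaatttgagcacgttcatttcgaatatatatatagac
GSTU12: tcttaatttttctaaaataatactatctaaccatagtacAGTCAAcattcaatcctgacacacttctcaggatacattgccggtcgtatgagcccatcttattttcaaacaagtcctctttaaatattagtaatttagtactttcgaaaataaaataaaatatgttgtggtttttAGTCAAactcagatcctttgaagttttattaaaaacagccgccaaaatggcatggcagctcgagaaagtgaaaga

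GSTF7 held 3 W-boxes, whose first letters lay 152, 63 and 55 bases before the start. In GSTU11 a W-box at 77 bases and a TGACG at 72 bases on the opposite strand shared their border letter. GSTU12 held W-boxes at 211 and 75 bases. The next 4 promoters hold neither element, and belong to members that were higher after oxo-C14-HSL under the Col-0 label: GSTF9 (chr2:13138632-13138881, plus strand), GSTU13 (chr1:9425030-9425279, plus strand), GSTU20 (chr1:29485390-29485639, minus strand) and GSTU23 (chr1:29468395-29468644, minus strand).
GSTF9: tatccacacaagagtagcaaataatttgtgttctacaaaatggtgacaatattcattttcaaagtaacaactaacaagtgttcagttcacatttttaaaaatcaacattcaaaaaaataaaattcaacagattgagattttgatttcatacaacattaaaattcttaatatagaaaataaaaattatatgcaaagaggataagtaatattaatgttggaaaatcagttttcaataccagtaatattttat
GSTU13: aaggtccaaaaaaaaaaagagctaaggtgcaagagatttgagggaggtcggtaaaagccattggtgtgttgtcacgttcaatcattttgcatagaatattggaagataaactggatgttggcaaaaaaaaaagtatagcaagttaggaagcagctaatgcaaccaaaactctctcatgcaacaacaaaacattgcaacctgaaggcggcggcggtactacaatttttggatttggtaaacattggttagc
GSTU20: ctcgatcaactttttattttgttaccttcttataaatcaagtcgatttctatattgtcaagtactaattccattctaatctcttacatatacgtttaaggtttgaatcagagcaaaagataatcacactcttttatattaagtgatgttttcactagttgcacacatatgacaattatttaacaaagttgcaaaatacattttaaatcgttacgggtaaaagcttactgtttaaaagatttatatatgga
GSTU23: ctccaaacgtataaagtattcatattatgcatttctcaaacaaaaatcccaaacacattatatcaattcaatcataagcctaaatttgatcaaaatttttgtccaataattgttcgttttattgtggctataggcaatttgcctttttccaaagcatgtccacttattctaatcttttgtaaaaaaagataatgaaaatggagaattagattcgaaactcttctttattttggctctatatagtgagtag

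Over the family, a W-box occurred in 23 of 47 promoters (48.9%), against 28.4% of the 27444 promoters of all genes. TGACG occurred in 15 of 47 (31.9%), against 18.6% of all. The ERF core GCCGCC occurred in 3 of 47 (6.38%, all genes 1.87%), and the G-box CACGTG also in 3 (6.38%, all genes 6.49%). A match is a run of letters and not a bound site, and windows of neighbouring members can share ancestry. The windows shown were chosen after the values were seen and overlap no other annotated gene. Some of the other windows counted do overlap another gene, among them those of GSTU5, GSTU7 and GSTU10, which hold a W-box. Not all members followed the windows shown. GSTU16, lower under both labels, held neither element, and GSTU26, higher under the Col-0 label, held a W-box.

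Under the Col-0 label, the median of the members lay close to that of all loci, and 1 member was called. Of the 45 loci, 38 passed the filter on low values. Their median log2 ratio was -0.01, against -0.02 over all 16854 nuclear loci that passed, with 17 members above 0 and 21 below. The members ranged from -0.59 to 1.04, and 31 of 38 lay within 0.5 of 0. Of all loci, 1.58% were called higher and 0.415% lower. Of the members, 1 was called higher (GSTU23) and 0 lower.

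GSTU23, a tau class gene of low abundance, stood at 1.20 FPKM after acetone and 2.58 FPKM after oxo-C14-HSL under the Col-0 label, a log2 ratio of 1.04. Under the ali1 label it stood at 1.55 and 2.21 FPKM, a log2 ratio of 0.48. Both oxo-C14-HSL groups thus lay above both acetone groups, an order that was not counted over all loci. These levels amount to approximately 57, 130, 75 and 108 reads over the 3 libraries of each group. In this table low loci as a whole were higher after oxo-C14-HSL, and the median over all loci was 0.10 between 1 and 10 FPKM, -0.07 between 10 and 100 FPKM and -0.09 above 100 FPKM. The members followed with 0.11, -0.01 and -0.21. With the running median of all loci over mean FPKM taken off, no member was called.

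GSTF11 and GSTU6 came next. GSTF11, which acts in the synthesis of aliphatic glucosinolates, stood at 1.10 FPKM after acetone and 1.78 FPKM after oxo-C14-HSL (log2 ratio 0.65). GSTU6, a tau class gene, stood at 1.31 and 2.02 FPKM (0.59). Both are low loci. Members of moderate level were close behind, namely GSTU13, an enzyme of indolic glucosinolate metabolism, with 22.8 and 34.1 FPKM (0.58), and GSTU20, which acts in the aliphatic branch, with 24.6 and 35.9 FPKM (0.54). Their level lies where the median of all loci was below 0.

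At the lower end, GSTU5 was at 317 and 211 FPKM after acetone and after oxo-C14-HSL (log2 ratio -0.59), GSTU11 at 12.9 and 8.67 FPKM (-0.57) and GSTU4 at 18.8 and 14 FPKM (-0.42). GSTU16 was at nearly the same ratio (-0.42), with 42.1 and 31.5 FPKM. The abundant phi members GSTF6 (-0.38), GSTF7 (-0.32) and the GSTF8 locus (-0.20) were also lower. None of these was called.

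Under the ali1 label more members were below 0 than above, by small amounts, and 0 were called in either direction. Of 37 members that passed, 29 were below 0 and 8 above, so 21.6% were above 0, against 53.2% of all 16764 loci. The median of the members was -0.14 and that of all loci 0.01. Across levels, the members between 1 and 10, between 10 and 100 and above 100 FPKM had medians of -0.12, -0.19 and -0.07, where all loci had 0.01, 0.01 and 0.00. Of all loci, 0.334% were called higher and 0.543% lower. The members ranged from -0.87 to 0.81.

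**Figure D2:**
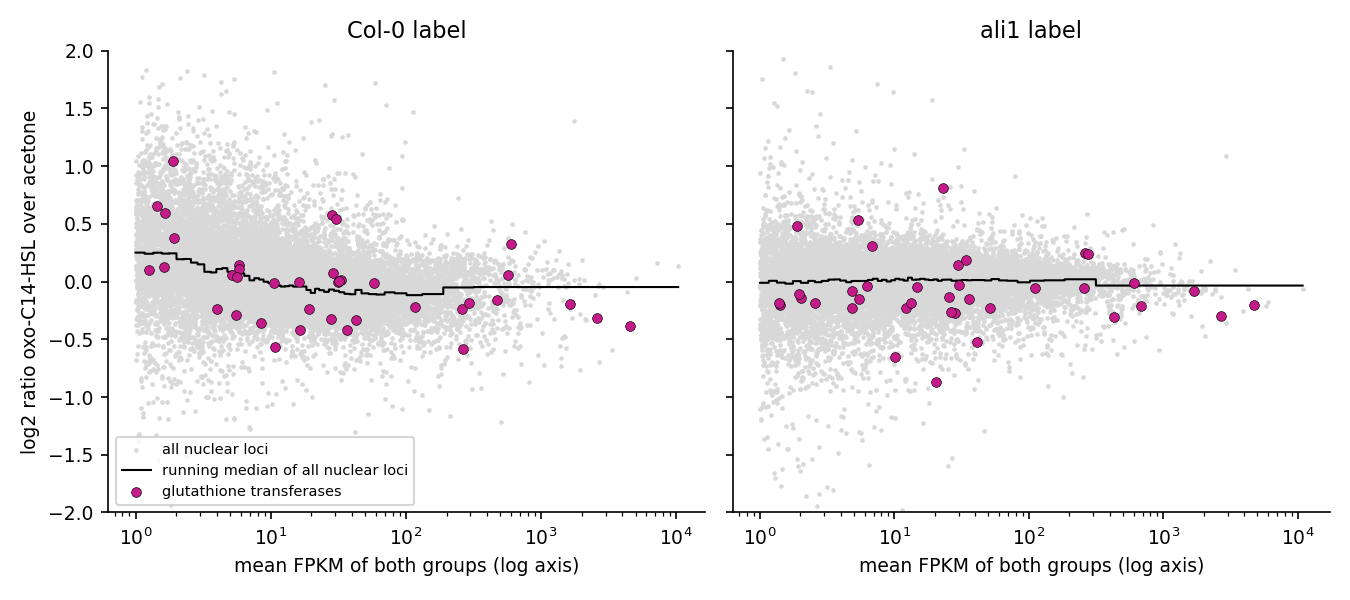
Log2 ratio of oxo-C14-HSL over acetone (vertical axis, cut at 2 in either direction) against the mean FPKM of both groups (log axis), under the Col-0 label (left) and the ali1 label (right). Grey points are all nuclear loci that passed the filter, the line is their running median, and coloured points are the GST loci. The line falls with level under the Col-0 label, from 0.10 as the median between 1 and 10 FPKM to -0.09 above 100 FPKM, and stays near 0 under the ali1 label, where 29 of 37 members lie below 0.

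GSTF12 had the highest log2 ratio under the ali1 label (0.81). Known as TT19, it carries anthocyanins on their way to the vacuole. It was at 16.8 FPKM after acetone and 29.5 FPKM after oxo-C14-HSL, whereas both groups labelled Col-0 stood at 31.3 FPKM. The acetone group labelled ali1 was thus the one that lay apart, with a log2 ratio of -0.90 to the acetone group labelled Col-0. GSTU22 followed with 4.40 and 6.39 FPKM (0.53), against 5.59 and 6.05 FPKM under the Col-0 label (0.11), and then GSTU23 (0.48).

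The lowest ratio under the ali1 label was that of GSTF3 (-0.87), with 26.5 FPKM after acetone and 14.5 FPKM after oxo-C14-HSL, against 20.8 and 17.6 FPKM under the Col-0 label (-0.24). The locus that its close relative GSTF2 shares with AT4G02530 was at 476 and 384 FPKM (-0.31) and at 500.0 and 449 FPKM (-0.16) in the same order. GSTF3 and the shared GSTF2 locus thus lay below 0 under both labels, and the parts of GSTF2 and AT4G02530 cannot be told apart. GSTU11, with 12.4 and 7.85 FPKM (-0.65), and GSTU12, with 48.2 and 33.5 FPKM (-0.52), came next. Both were also lower under the Col-0 label, GSTU11 at -0.57 and GSTU12, with 47.8 and 37.9 FPKM, at -0.33. In GSTU11 and GSTU12 the acetone groups of both labels lay above the oxo-C14-HSL groups of both labels, an order that GSTF3 shared and that was not counted over all loci. GSTF7 was also lower under both labels, at -0.32 under the Col-0 label and -0.30 under the ali1 label.

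Set side by side, the labels gave opposite signs for 16 of 37 members (43.2%), a share close to that of all loci (46.2%). Of the 37 members that passed in both tables, 17 (45.9%) were below 0 under both labels, 12 (32.4%) above 0 under the Col-0 label and below 0 under the ali1 label, 4 the reverse and 4 above 0 under both. The shares over all 16526 loci were 27.0%, 19.6%, 26.6% and 26.8% in this order. These signs count small ratios as well. A W-box stood in the promoter window of 12 of the 17, 3 of the 12, 3 of the 4 and 2 of the 4 members in this order, and of 33.3%, 28.5%, 32.4% and 26.6% of all loci with the same signs. For TGACG the counts were 6, 3, 2 and 2, and the shares of all loci 22.2%, 19.3%, 21.2% and 19.7%. The measures are slightly unlike. For members only the promoters of the GST names were read, and for all loci those of any name of the locus, where a promoter was matched.

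The largest differences of the log2 ratios (Col-0 label minus ali1 label) were those of GSTU13 (0.85), GSTU5 (-0.82), GSTF12 (-0.81), GSTU20 (0.80) and GSTF11 (0.79). At the same threshold of 1, 0 members were higher and 0 lower under the Col-0 label, where 2.90% of all loci were higher and 0.879% lower. GSTU5 stood at 317 and 211 FPKM under the Col-0 label and at 252 and 296 FPKM under the ali1 label, so that its acetone groups lay on either side of its oxo-C14-HSL group labelled ali1. Under the ali1 label GSTU13 was at 30.8 and 25.4 FPKM (-0.28), GSTU20 at 28.7 and 24.0 FPKM (-0.26) and GSTF11 was at 2.13 and 1.93 FPKM (-0.14). GSTF9 had the same signs, with 0.33 under the Col-0 label and -0.21 under the ali1 label. The acetone group labelled Col-0 was the lowest of the 4 in GSTU13, GSTF9 and GSTF11, and the oxo-C14-HSL group labelled ali1 in GSTU20.

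**Figure D3:**
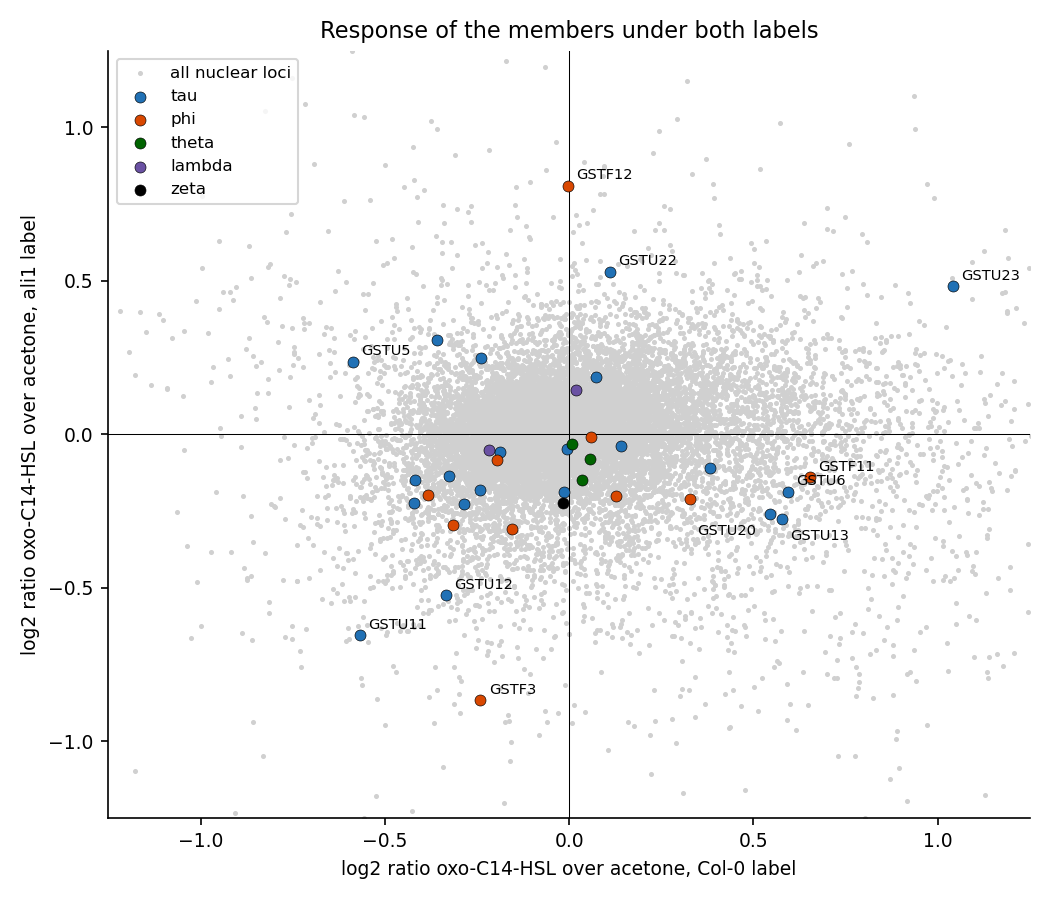
Log2 ratio of oxo-C14-HSL over acetone under the Col-0 label (horizontal axis) and under the ali1 label (vertical axis) for the 37 GST loci that passed in both tables, coloured by class, over all nuclear loci in grey; both axes are cut at 1.25. Below 0 on both axes lie 17 members, and 12 lie at the lower right, and GSTU23 at 1.04 is the member farthest to the right.

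Between the labels, levels after the same pretreatment differed by less than the threshold for every member that passed. After acetone 0 of 38 members were called higher and 0 lower under the ali1 label, against 1.15% and 0.670% of all loci, and after oxo-C14-HSL 0 of 37 and 0 of 37, against 0.419% and 1.17%. Over all loci the medians of these ratios were -0.05 and -0.02, so the scales of both tables lay close to each other. The members ranged from -0.90 (GSTF12) to 0.90 (GSTF11) after acetone and from -0.62 (GSTU6) to 0.49 (GSTU5) after oxo-C14-HSL. The range between the labels was thus wider among the acetone controls than after treatment. Over all loci the SD of these ratios was likewise larger after acetone (0.44) than after oxo-C14-HSL (0.41).

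By class, the 11 phi loci that passed under the Col-0 label had a median of 0.00 and the 21 tau loci -0.19. Under the ali1 label the medians were -0.20 for 10 phi loci and -0.14 for 21 tau loci. The sums show where the transcripts lay: phi loci summed to 11430 and 9543 FPKM under the Col-0 label and to 11601 and 10108 FPKM under the ali1 label, tau loci to 1199 and 1001 FPKM and to 1042 and 1088 FPKM. The tau sum thus changed by -16.6% after oxo-C14-HSL under the Col-0 label and by 4.46% under the ali1 label, where GSTU5 and the GSTU18 locus had the largest gains in FPKM. The GSTU18 locus stood at 280 and 237 FPKM under the Col-0 label and at 238 and 283 FPKM under the ali1 label.

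Of the smaller classes, all 3 theta loci, which code for enzymes with peroxidase activity in peroxisomes, lay between 0.01 and 0.06 under the Col-0 label and between -0.15 and -0.03 under the ali1 label. GSTT1 stood between 30.0 and 32.3 FPKM in the 4 groups. GSTZ1, the maleylacetoacetate isomerase of tyrosine breakdown, stood at 58.1, 57.5, 54.9 and 47.0 FPKM, with log2 ratios of -0.02 under the Col-0 label and -0.22 under the ali1 label. The lambda loci had log2 ratios of -0.22 (GSTL1 with GSTL3) and 0.02 (GSTL2) under the Col-0 label, and -0.05 and 0.14 under the ali1 label.

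Position was not used in choosing the members, and 31 of the 45 loci lay in 10 tandem groups, in which neighbours are at most 10 kb apart. The highest and lowest mean FPKM within a group differed by more than 10 times in 7 of the 10 groups, and least between GSTF9 (643 FPKM) and GSTF10 (584 FPKM). On chromosome 1, GSTF7, GSTF6, GSTF5 and GSTF4 lie within 7.89 kb, and their mean FPKM ran from 0.973 (GSTF4) to 4643 (GSTF6). GSTF5 was at 1.55, 1.70, 1.51 and 1.30 FPKM. The group of GSTU23, GSTU22, GSTU21, GSTU20 and GSTU19 spans 20.6 kb and ran from 0.0250 FPKM (GSTU21) to 275 FPKM (GSTU19). The group of GSTU7, GSTU6, GSTU5, GSTU4, GSTU3 and the GSTU1 and GSTU2 locus on chromosome 2 ran from 0.119 FPKM (GSTU3) to 269 FPKM (GSTU5).

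Neighbours also differed in their ratios. In the group around GSTU5, log2 ratios under the Col-0 label ran from -0.59 (GSTU5) to 0.59 (GSTU6), and in that around GSTU20 from -0.19 (GSTU19) to 1.04 (GSTU23). GSTU19, an abundant tau enzyme, was at 311, 273, 263 and 253 FPKM. In contrast, GSTU12 and GSTU11 were below 0 together under both labels, GSTF7 and GSTF6 likewise, and the 3 theta neighbours were close to 0. GSTU13 stood at a mean of 28.3 FPKM beside GSTU14 at 0.0534 FPKM, GSTU16 at 36.3 FPKM beside GSTU15 at 0.0853 FPKM, and GSTZ1 at 54.4 FPKM beside GSTZ2 at 0.122 FPKM. Of the group of GSTU24, GSTU25 and GSTU26, of which GSTU24 and GSTU25 are known to act on the explosive TNT, GSTU24 had 4.33, 3.65, 2.74 and 2.4 FPKM, GSTU26 had 1.66, 2.19, 2.02 and 1.86 FPKM, and GSTU25 was below 1 FPKM in every group.

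**Figure D4:**
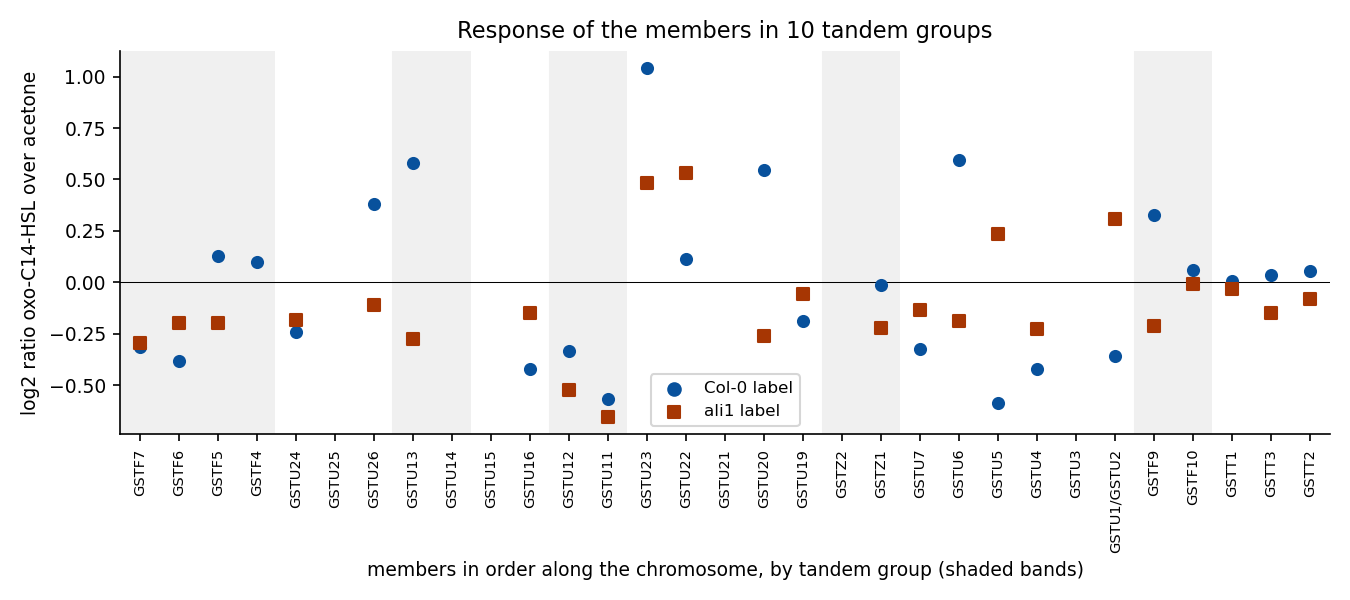
Log2 ratio of oxo-C14-HSL over acetone for the members of the 10 tandem groups (bands), in order along the chromosomes, with circles for the Col-0 label and squares for the ali1 label. Members under 1 FPKM have no symbol. The pair of GSTU12 and GSTU11 lies below 0 under both labels (-0.33 and -0.57, and -0.52 and -0.65), whereas GSTU6 (0.59) and its neighbour GSTU5 (-0.59) lie on opposite sides under the Col-0 label.

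Near-identical genes can share reads, so the coding sequences of 48 genes (the 47 members and ERD9) were aligned in all 1128 pairs. Identity was above 90% in 3 pairs: GSTF2 with GSTF3 (94.5%), GSTF6 with GSTF7 (94.3%), and GSTT2 with GSTT3 (91.2%). Stretches as long as a read, 100 bases, were identical between members only in GSTF6 and GSTF7 (1.56% and 1.53% of their windows) and in GSTT2 and GSTT3 (1.69% and 1.66%). Few reads of these 4 genes can therefore fit both copies without a mismatch. GSTT2 and GSTT3, at 5.08, 5.29, 4.93 and 4.66 FPKM and at 5.59, 5.74, 5.78 and 5.21 FPKM, had nearly equal levels.

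GSTF14, a phi gene that passed no filter in either treatment comparison, had the widest spread. It stood at 0.0287 and 0.196 FPKM under the Col-0 label and at 1.16 and 0.202 FPKM under the ali1 label, approximately 2, 14, 79 and 14 reads. The single high value was the acetone group labelled ali1. Whether it came from 1 library or from all 3 cannot be read from a pooled value.

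Other genes of glutathione metabolism were taken from lists of known function. Of 7 genes of glutathione synthesis and turnover 6 passed, with medians of 0.14 under the Col-0 label and -0.08 under the ali1 label. GSH1, the first enzyme of glutathione synthesis, was at 75.2, 76.3, 73.1 and 70.5 FPKM. Of 13 genes of the glutathione redox cycle 11 passed (medians -0.16 and -0.04), and the 3 vacuolar pumps of glutathione conjugates all did (0.06 and 0.02), ABCC1 being at 27.8, 29.0, 27.8 and 27.7 FPKM. The 7 TGA factors, which bind TGACG, had medians of -0.12 and 0.02. Of these, TGA1 shares its locus with AT5G65220 and TGA7 with AT1G77930, so their values are those of shared loci. The chemical detoxification genes, which respond with GSTs to oxidised lipids and xenobiotics, gave 7 loci under the Col-0 label (median -0.31) and 6 under the ali1 label (-0.12). Among them the alkenal reductase gene AER stood at 244, 155, 173 and 151 FPKM. No gene of these lists was called under either label.

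Leaf and root markers were compared in the same way, since members can be more abundant in one organ. The 9 leaf markers had log2 ratios from -0.11 to 0.14 under the Col-0 label and from -0.20 to 0.11 under the ali1 label, with 8 and 2 of 9 above 0. Of the root markers 7 passed under the Col-0 label (median 0.00) and 8 under the ali1 label (median 0.37, 6 above 0). CASP1, of the root endodermis, was at 9.02 and 15.4 FPKM under the ali1 label, and the nitrate transporter gene NRT2.1 at 5.68 and 2.27 FPKM, the only marker that was called (-1.28). Their summed level ran from 426 to 556 FPKM in the 4 groups, most of it from PYK10. COBL9 was listed at 0 in the acetone group labelled Col-0. The part of these values in the ratios of the members was not tested.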

How the data were processed

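RNA of whole seedlings was sequenced as 100 bp single-end reads by the authors, who used RNAStar, Cufflinks 2.2.1.0, cuffmerge and Cuffdiff 2.2.1.5 on TAIR10 (tools and build per the labels and the study's methods). Each deposited FPKM value stands for a whole group, pooled over 3 libraries and scaled by the authors within each of 2 Cuffdiff runs, with a normalization and strand setting not given in the sources used here. The tables also hold the authors' fold changes, test statistics and p-values, which were not used. Groups came from the titles, because the description entries name the opposite genotype's comparison.

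Log2 ratios used a pseudocount of 0.1 FPKM, a minimum mean of 1 FPKM and a threshold of 1, without a test. The background was taken over 36028 nuclear loci instead of all 36101, as intended at first, because 2 of the 73 organelle loci were listed at 0 in one group labelled ali1 and above 1 FPKM in the other. Loci were matched by name to the TAIR10.1 annotation, whose chromosomes hold every nuclear locus. Coding sequences were aligned with Biopython 1.88 in place of the proteins first intended. Members named were those called, the 5 most abundant, the 3 highest and lowest ratios per label, the 5 largest differences, those listed at 0, pairs above 90% identity, GSTF8 and tandem groups, with others chosen after their values were seen. Depth was estimated from the spacing of low FPKM values as 20500000 to 21800000 reads per library, an approximate value without interval, with a window for the lowest step that was set after the values were seen. The members and all gene lists were chosen with earlier results of these data known. Computation used Python 3.11.15, pandas 2.3.3, numpy 2.4.6 and matplotlib 3.10.9, and the ratios and running median were tested on simulated data. Promoter windows other than the 7 printed are not reported here.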

Additional observations from a re-analysis of the deposited data

How the results depend on the processing

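The counts rested on few and low members. With a pseudocount of 1, a minimum mean of 5 FPKM, or the running median over mean FPKM (50 bins) taken off, 0 members were called higher under the Col-0 label in place of 1. Without a filter on low values 3 of 45 were called higher there (GSTU23, GSTU14 and GSTF14; 3.81% of all loci), 1 lower under the ali1 label (GSTF14; 2.27%), and 4 had a difference of log2 ratios of at least 1 (GSTU25, GSTU14, GSTF14 and GSTU21; 6.92%). At a fold of 1.5 the calls were 3 higher and 1 lower of 38 under the Col-0 label (6.39% and 1.75% of all loci), 1 higher and 2 lower of 37 under the ali1 label (1.02% and 2.13%), 5 higher and 3 lower of 37 for the difference (8.17% and 2.67%), and 4 of 38 and 2 of 37 between the labels after acetone and after oxo-C14-HSL (6.06% and 5.42%). The median of the members under the Col-0 label went from -0.01 to -0.16 with a minimum mean of 5 FPKM, and under the other alternatives it stayed within 0.1 of its value. That under the ali1 label stayed between -0.15 and -0.12. The count of members below 0, added after the values were seen, was 29 of 37 under the ali1 label, and 28 with the running median taken off. Under the Col-0 label it went from 21 to 17 when ratios were centred on the median of all loci.

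No paired analysis was possible because the tables hold 1 pooled value per group, and leaving out a library was not possible either. Depth limits the members below 1 FPKM.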

Other observations

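Outside the family, 2 gene groups had ratios like those of single members. Both lists were written after the values of the members had been seen, so they are descriptions. None of their genes was called between oxo-C14-HSL and acetone under either label. Between the labels after acetone, the ratio of ali1 label over Col-0 label passed the threshold in the CYP79B2 locus (1.19), LDOX (-1.06) and UF3GT (-1.03). Of all loci, 1.15% were called higher and 0.670% lower in that comparison. Differences of the log2 ratios were not counted for these lists.

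The genes of glucosinolate synthesis, the pathway in which GSTF9, GSTF11, GSTU13 and GSTU20 have known or proposed roles, had the same signs as these members. Of 13 genes 13 lay above 0 under the Col-0 label (median log2 ratio 0.41) and 1 of 13 under the ali1 label (median -0.20). The locus of CYP79B2, which acts in the synthesis of indolic glucosinolates and camalexin and shares this locus with AT4G39952 and AT4G39955, stood at 54.6 and 89.9 FPKM after acetone and oxo-C14-HSL under the Col-0 label and at 124 and 96.9 FPKM under the ali1 label. SOT17, a sulfotransferase of the last step, was at 25.9, 38.1, 44.4 and 31.1 FPKM in the same order. In both the acetone group labelled Col-0 was the lowest and the acetone group labelled ali1 the highest. CYP83A1 was the gene above 0 under both labels (0.58 and 0.04).

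Late genes of anthocyanin synthesis had values like those of GSTF12, which transports their product. DFR stood at 53.9, 57.2, 28.7 and 49.4 FPKM, and LDOX at 27.8, 28.6, 13.3 and 24.6 FPKM. The acetone group labelled ali1 was the one that lay apart in each. By qPCR, the paper reports that DFR, a marker of AHL priming, was raised by oxo-C14-HSL in Col-0 and not in ali1. Here the larger DFR log2 ratio was that under the ali1 label (0.78, against 0.09 under the Col-0 label). The measures are unlike, since the qPCR was set relative to a reference gene and was done after priming, with no flg22 named. Under the ali1 label 8 of 9 genes lay above 0 (median 0.62, the value of PAP1), and under the Col-0 label 6 of 9 (median 0.04). PAP1, a regulator of the pathway, did not share the low acetone group labelled ali1, with 3.95, 4.05, 5.07 and 7.86 FPKM. In the early gene TT4 (chalcone synthase) the larger ratio was that under the Col-0 label (0.45, against 0.16 under the ali1 label).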
